A study of Mus musculus with 15 samples.

Results

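The reference RNAs of the rodent miRNA arrays were U6 (assay MammU6), the small nucleolar RNAs snoRNA135, snoRNA202, snoRNA429 and U87, the Y RNA Y1, and the miRNAs miR-26a and miR-26b, 8 names in all. They were picked by assay name alone, with any arm and on either card, which gave 14 assays by card of the 597 on both cards. Card A held MammU6, U87, Y1, snoRNA135, snoRNA202, miR-26a and miR-26b. Card B held MammU6, U87, Y1, snoRNA135, snoRNA202, snoRNA429 and miR-26b*, the other arm of the miR-26b precursor. The question addressed was how far each of these RNAs held its level between α and β cell lines and under cytokines, since miR-26a is the RNA to which the deposited values were set.

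Levels were measured by TaqMan real-time PCR on low density array cards in 15 samples of mouse cell lines. Each of 5 conditions had 3 replicates: untreated αTC1-6 at 24 h and at 48 h, αTC1-6 after 24 h and 48 h with cytokines, and untreated βTC1 at 24 h. The αTC1-6 line comes from a glucagonoma and the βTC1 line from an insulinoma, with αTC1-6 used at passages 20 to 40, so each cell type was represented by 1 tumour line. The cytokine mixture held 1000 IU/ml of IFN-γ and of TNF-α together with 50 IU/ml of IL-1β, and no βTC1 sample received it. Each reverse transcription took 180 ng of total RNA. With a fixed RNA mass, fewer copies of an RNA per cell and more of other RNAs cannot be told apart. A Ct is the cycle at which the fluorescence passes its threshold, so it falls by 1 when the level doubles, and it was compared here within an assay, never as an amount between assays. Differences are given as log2, in cycles, and are positive where the first group named had more RNA.

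Reference RNAs are measured beside the target RNA so that differences in input and in reverse transcription can be subtracted, which requires that they do not themselves follow the conditions. U6 is the small nuclear RNA at the catalytic centre of the spliceosome. The 4 small nucleolar RNAs belong to the C/D box class, which guides methylation of ribose in other RNAs, chiefly ribosomal RNA. Y1 is a small RNA made by RNA polymerase III and bound by the Ro60 protein. The miR-26 family is expressed widely and is known for targets such as Ezh2. In RefSeq, snoRNA135 is a synonym of Snord65 and U87 of Snord87, while snoRNA202 and snoRNA429 were matched to Snord68 and Snord100 through the names MBII-202 and MBII-429. Snord68 and Snord100 lie within the ribosomal protein genes Rpl13 and Rps12, and Snord87 within Snhg6.

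The mature sequences of the miR-26 assays are shown because miR-26a and miR-26b share their seed and nearly all other bases, and each was read by its own assay. Bases 2 to 8, the seed, are in capitals, and sequences and positions are those of RefSeq on build GRCm38.p6.
miR-26a: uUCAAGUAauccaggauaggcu
miR-26b: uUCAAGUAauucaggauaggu
miR-26b*: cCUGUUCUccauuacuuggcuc
The 22 bases of miR-26a lie at chr9:119031811-119031832 and again at chr10:126995543-126995564, on the plus strand, and RefSeq places the precursor genes Mir26a-1 and Mir26a-2 within the protein-coding genes Ctdspl and Ctdsp2. The 21 bases of miR-26b lie at chr1:74394324-74394344 and those of miR-26b* at chr1:74394360-74394381, both on the plus strand and within Ctdsp1. Over the 21 positions that both have, counted from the 5′ end, miR-26a and miR-26b were identical at 19 and differed by C11U and C21U, with the base of miR-26a first. No other of the 1679 mature mouse miRNA names in the table had the seed UCAAGUA. The miRNA miR-26b* has another seed, CUGUUCU.

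Every reference RNA had a Ct in all 15 samples. Of the 373 miRNA assays of card A, between 212 and 274 had one in each sample of 24 h. In each sample of 48 h between 302 and 335 did. On card B between 173 and 190 of 208 had one, without such a split by time. The part of the split of card A in the differences of time below was not tested. The islet miRNA miR-375 had a Ct between 13.42 and 15.98 in all 15 samples, whereas the acinar miR-217 had none in the 12 αTC1-6 samples and between 24.53 and 26.97 in the 3 βTC1 samples. The acinar miR-216a had a Ct in 1 of 12 αTC1-6 samples and miR-216b in 4 of 12, and both in the 3 βTC1 samples. Ct values lay just under a whole number more often than an even spread would give: 35.5% of all Ct values and 27.7% of those of the reference RNAs had a decimal part of 0.9 or more, against 10% for an even spread. The share was 40.3% for the reference RNAs of card A and 22.7% for those of card B, against 43.5% and 28.3% of all assays of these cards, and its part in the differences below was not tested.

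MiR-26a had nearly the same mean Ct in each condition. In untreated αTC1-6 of 24 h its Ct was 18.98, 17.55 and 17.69 in replicates 1, 2 and 3, and after 24 h with cytokines it was 18.88, 17.96 and 17.96. At 48 h it was 18.98, 16.97 and 17.95 without and 18.49, 17.71 and 17.44 with cytokines, and in βTC1 it was 18.38, 18.74 and 17.53. The 5 groups overlapped fully, and replicate 1 had the highest Ct in 4 of the 5 conditions. The means ran from 17.88 ± 0.54 (SD, n = 3) in αTC1-6 with cytokines for 48 h to 18.26 ± 0.53 with cytokines for 24 h, a span of 0.39 cycles against a pooled SD within conditions of 0.72.

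MiR-26b behaved alike, with means from 20.02 ± 0.65 in untreated αTC1-6 of 24 h to 20.48 ± 0.50 after 24 h with cytokines, and 20.12 ± 0.27 in βTC1. Over all 15 samples its Ct ran from 18.89 to 20.97. The other arm of the same precursor spread more between conditions. MiR-26b* had a Ct of 25.96, 25.92 and 26.64 in untreated αTC1-6 of 24 h, 26.63, 25.93 and 27.95 after 24 h with cytokines, 26.50, 26.20 and 26.83 untreated at 48 h, and 26.91, 28.08 and 27.88 after 48 h with cytokines. In βTC1 it was 26.88, 26.86 and 26.82. All 3 samples with cytokines for 48 h lay above all 3 untreated samples of that time, and all 3 βTC1 samples lay above the untreated αTC1-6 of 24 h. Its condition means spanned 1.45 cycles, the widest of the 14 assays, and in 3 samples 1 of its 2 wells was blank.

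U6 had the lowest Ct of the group and held the 1 undetermined well among the 540 wells of reference RNAs, of which 11 others, all on card B, were blank and left out. On card A its 4 wells in untreated αTC1-6 of 24 h replicate 1 read 11.15, undetermined, 11.25 and 11.16. Set at 40, as the deposited table has it, that well raised the mean of the sample to 18.39, and without it the mean was 11.19. Without it the condition means of card A ran from 11.35 ± 0.18 in untreated αTC1-6 of 24 h to 12.40 ± 0.97 in untreated αTC1-6 of 48 h. On card B, where no well was undetermined and 1 was blank, they ran from 11.36 ± 0.79 in βTC1 to 12.27 ± 1.21 after 48 h with cytokines. From here on, differences of the reference RNAs and their intervals are given without this well unless stated. Undetermined wells of other assays were then left out too where another well on the card had a Ct. This also moved sample medians and intervals on card B. Counts and adjusted p-values have undetermined wells at 40. Leaving these wells out changed no count of reference RNAs past the threshold.

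The widest spread within conditions was that of snoRNA202, snoRNA135 and U87, with a pooled SD between 0.97 and 1.33 cycles on the cards, while snoRNA429, at 0.81, was below Y1 of card B, at 0.92. On card A, snoRNA135 read 20.46, 16.94 and 18.51 in untreated αTC1-6 of 24 h and 19.97, 17.36 and 18.98 after 24 h with cytokines. It read 19.97, 16.73 and 18.97 untreated at 48 h, 19.66, 17.96 and 18.51 with cytokines for 48 h, and 18.97, 17.70 and 18.97 in βTC1. Samples of 1 condition were thus far apart, with an SD up to 1.77, while the 5 condition means lay within 0.23 cycles of each other, from 18.55 ± 0.74 in βTC1 to 18.77 ± 1.32 after 24 h with cytokines. On card B its means ran from 16.91 ± 0.89 in βTC1 to 17.85 ± 1.37 in untreated αTC1-6 of 24 h. SnoRNA202 and U87 had their highest mean Ct in βTC1 on card A, 15.91 ± 0.92 and 19.97 ± 0.75, and their lowest in untreated αTC1-6, 14.79 ± 1.25 at 48 h and 18.71 ± 1.14 at 24 h. U87 of card B also had its highest mean in βTC1, 19.62 ± 1.13, and snoRNA429 did too, at 16.04 ± 0.50. Y1 ran from 19.43 ± 0.50 in untreated αTC1-6 of 24 h to 20.23 ± 0.65 in βTC1 on card A, and from 19.84 ± 0.78 in untreated αTC1-6 of 48 h to 20.90 ± 0.49 after 48 h with cytokines on card B.

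**Figure D1:**
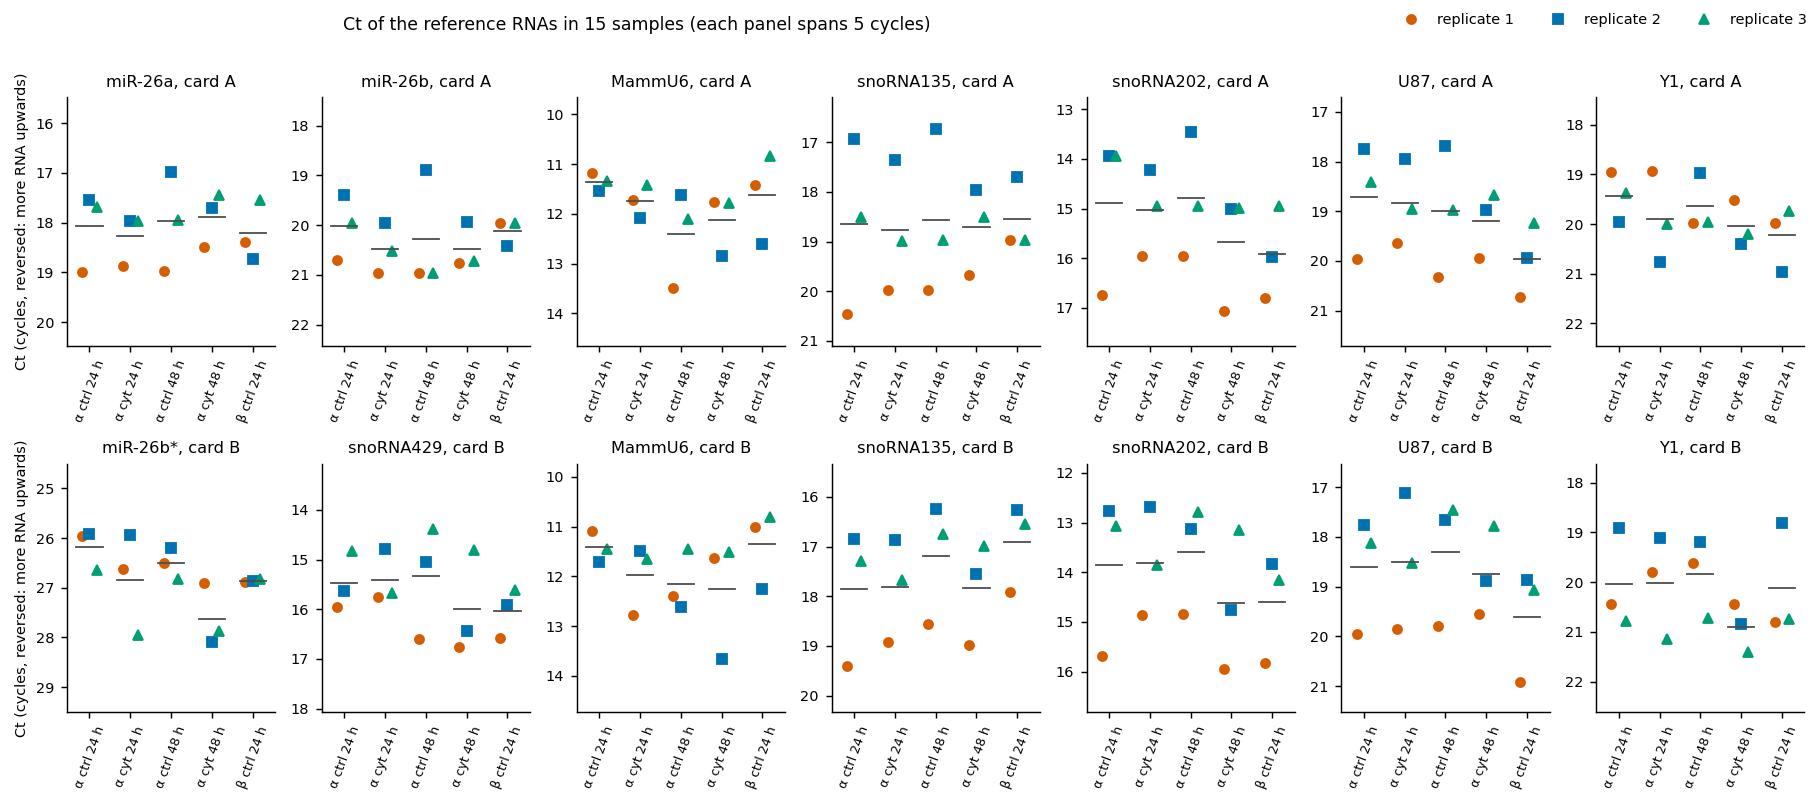
Ct of the 14 assays of reference RNAs by condition (cycles, axis reversed so that more RNA is upwards, 5 cycles per panel). Points are single samples marked by replicate number, lines are means of 3, and U6 of card A is without its undetermined well. The samples numbered 1 lie lowest for each small nucleolar RNA in all 5 conditions. The condition means of an assay span from 0.23 to 1.45 cycles.

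When the 5 conditions of an assay were put in order of mean Ct, only 1 of 56 gaps between neighbours was wider than the pooled SD within conditions. It was that of miR-26b* between βTC1 and αTC1-6 with cytokines for 48 h, 0.77 against 0.58 cycles. Over the 290 assays with a Ct in every sample 15.9% of such gaps were wider. The span from the lowest to the highest mean was wider than the pooled SD in 7 of 14 assays, namely U6, U87 and Y1 on both cards and miR-26b*, against 86.6% of the 290. In a limma F test over the 5 conditions, 0 of 14 assays passed the threshold of an adjusted p of 0.05, whereas 31.9% of all 573 assays tested did. At an unadjusted p under 0.05 there were also 0 of the 14, against 40.1% of all assays. The lowest adjusted p was 0.386, for miR-26b*.

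Between the lines, U87 had the widest difference. It was higher in αTC1-6 than in βTC1 by 1.26 on card A, with a 95% interval from -0.51 to 3.03, and by 1.01 on card B, from -1.26 to 3.29. SnoRNA202 differed the same way, by 1.03 and 0.76 on cards A and B. Y1 differed by 0.80 on card A but by 0.08 on card B. SnoRNA135 had the opposite sign, -0.94 on card B and -0.09 on card A. MiR-26a and miR-26b differed by 0.14 and 0.10, and miR-26b* by 0.68, the 1 assay of the 14 in which the groups did not overlap, against 43.9% of all assays tested. None of the 14 passed the threshold (limma, lowest adjusted p 0.218 for U87 of card A), against 31.5% of the 492 assays tested, and none had an unadjusted p under 0.05, against 39.6%. With the replicate number as a block, though the numbers were not taken to pair the lines, 1 of 14 had an unadjusted p under 0.05. It was U87 of card B (limma, p 0.0404, adjusted p 0.189), with an interval from 0.13 to 1.90. The median difference of all assays tested was -0.35, and relative to the sample median of the card U87 differed by 1.57 and 1.24, miR-26a by 0.46 and snoRNA135 by 0.22 and -0.72. Without the block the intervals from 3 against 3 samples were wide: 6 of 14 lay within 2 cycles of 0, none within 1 cycle. None lay within 1 cycle with the block either, so that a difference of 1 cycle was not excluded for any of them. U6 of card A depended on the undetermined well, with a difference of -2.14 with the well at 40 and 0.26 without it.

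Cytokines for 24 h moved none of the 14 past the threshold, against 0.438% of all assays tested, and none had an unadjusted p under 0.05, against 4.16%. The differences from untreated αTC1-6 ran from -0.67 for miR-26b* to 0.10 for U87 of card B. MiR-26a differed by -0.19, from -1.52 to 1.13, and miR-26b by -0.47, from -1.65 to 0.71. U6 differed by -0.39 on card A, from -1.12 to 0.35, and by -0.56 on card B, and with the undetermined well at 40 the value of card A was 2.01. The groups overlapped for every assay of the reference RNAs, whereas they did not for 8.97% of all assays. With the replicate number as a block, which the pairing of these samples allowed, U6, U87, miR-26a and miR-26b of card A were the 4 of 14 with an interval within 1 cycle of 0, that of miR-26a running from -0.78 to 0.40 and that of miR-26b from -0.98 to 0.05. The median difference of all assays tested was -0.32.

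After 48 h with cytokines the interval of each of the 14 assays included 0. Of the 14 differences 12 were negative, as was the median difference over all assays tested. The largest were those of miR-26b*, -1.12 with an interval from -2.33 to 0.09, Y1 of card B, -1.06 from -2.49 to 0.38, and snoRNA202 of card B, -1.03 from -3.44 to 1.39. MiR-26a, at 0.09 from -1.64 to 1.81, and U6 of card A, at 0.27 from -1.47 to 2.01, were the exceptions. None passed the threshold (limma, lowest adjusted p 0.414), against 0.366% of all assays tested, and none had an unadjusted p under 0.05, against 6.23%. The groups did not overlap for miR-26b* alone, against 12.3% of all assays. Relative to the median of the assays of the same card the difference of miR-26b* was -0.21, that of Y1 of card B -0.15 and that of snoRNA202 of card B -0.12. Others lay further from 0 on that scale: miR-26a 0.39, U6 0.57 on card A and 0.80 on card B, U87 of card B 0.47. SnoRNA202 of card A was at -0.59. The lowest adjusted p of the 14 on that scale was 0.834 (limma). The median difference of all assays tested of both cards was -0.43. Pair by pair, the Ct was higher with cytokines in all 3 pairs for 6 of 14 assays, snoRNA202 on both cards and snoRNA135, snoRNA429, Y1 and miR-26b* of card B, against 40.7% of the 290 assays. The rise in Ct was 0.82, 1.65 and 0.70 for Y1 of card B in pairs 1, 2 and 3, and 0.42, 1.89 and 1.04 for miR-26b*. With the replicate number as a block none of the 14 had an unadjusted p under 0.05. The interval of Y1 of card B then ran from -2.27 to 0.16, that of snoRNA202 of card B from -2.35 to 0.29, and that of miR-26b* from -2.54 to 0.31. The change of the cytokine effect from 24 h to 48 h passed the threshold for 0 of 14, against 0.409% of all assays tested, and ran without the undetermined well from -1.08 for Y1 of card B to 0.66 for U6 of card A.

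In untreated αTC1-6 the samples of 48 h differed from those of 24 h by -1.05 for U6 of card A, from -2.64 to 0.54, and by -0.74 for U6 of card B, from -1.94 to 0.45. These were the widest differences of time together with that of snoRNA135 of card B, 0.67 from -1.82 to 3.16. With the undetermined well at 40 the value of U6 of card A was 1.35. MiR-26a differed by 0.11 and miR-26b by -0.25. None of the 14 passed the threshold, against 5.19% of all assays tested, and 0 had an unadjusted p under 0.05, against 8.58%. The groups overlapped for all 14, and did not for 9.18% of all assays.

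**Figure D2:**
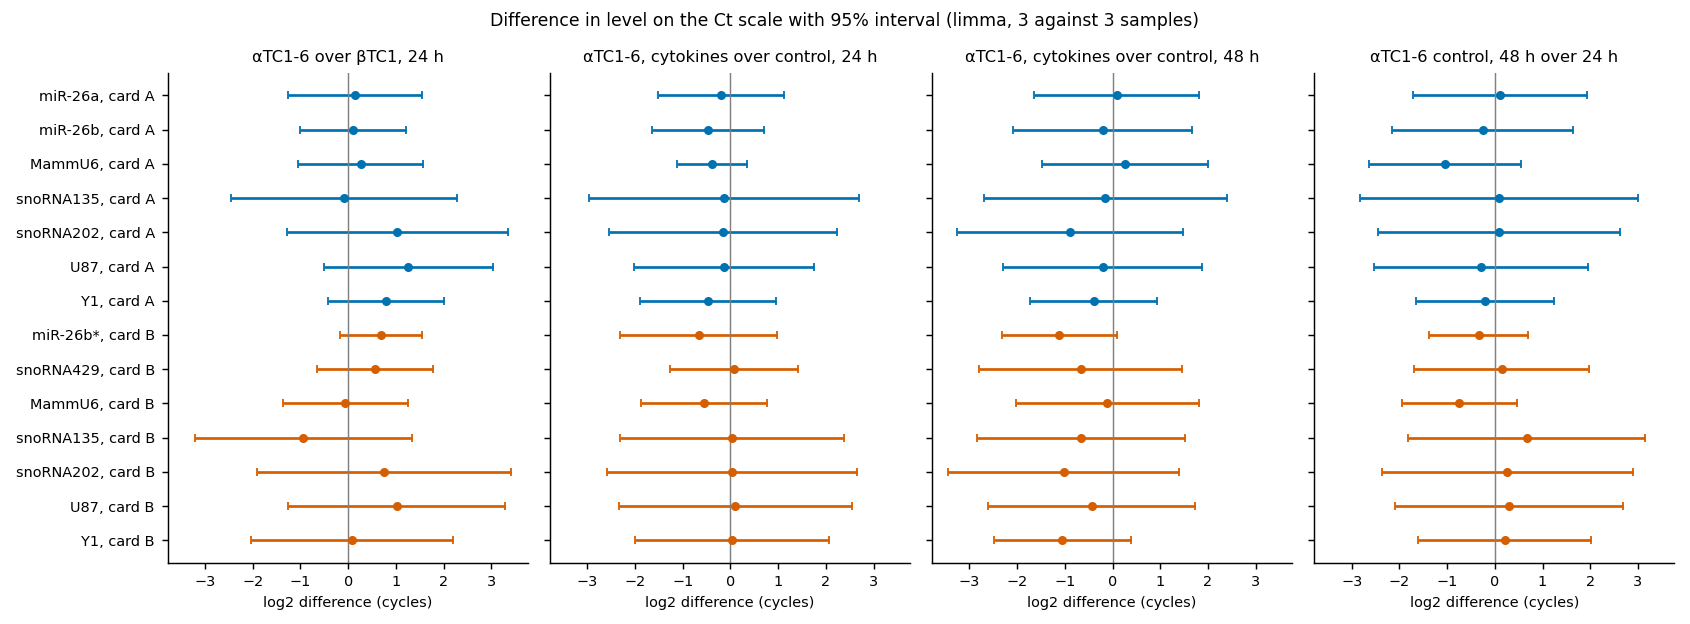
Differences of the 14 assays in the 4 comparisons on the Ct scale (log2, in cycles, positive where the first group named had more RNA). Points are limma estimates from 3 against 3 samples with 95% intervals, blue for card A and orange for card B, and U6 of card A is without its undetermined well. All intervals span 0, and none lies within 1 cycle of 0 on both sides.

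The spread of the small nucleolar RNAs went with the replicate number more than with the condition. In each of the 7 assays of the 4 small nucleolar RNAs the sample numbered 1 had the highest Ct of its condition in all 5 conditions, against 13.1% of the 290 assays with a Ct in every sample. In βTC1 on card A the Ct of snoRNA135 in the samples numbered 1 and 3 was the same to 2 decimals. The mean Ct of snoRNA135 on card A was 19.81 ± 0.55 (SD, n = 5) in the samples numbered 1, 17.34 ± 0.51 in those numbered 2 and 18.79 ± 0.25 in those numbered 3. On card B snoRNA202 averaged 15.43 ± 0.54, 13.44 ± 0.86 and 13.40 ± 0.58 in the same order, and U87 20.01 ± 0.53, 18.06 ± 0.79 and 18.20 ± 0.63. Y1 and U6 did not do this, since their sample numbered 1 had the highest Ct in 1 of 5 conditions on either card. MiR-26a was between, at 18.74 ± 0.29, 17.79 ± 0.64 and 17.71 ± 0.23.

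As a share of the sum of squares of Ct over the 15 samples, the replicate number took 86.1% for snoRNA135 of card A and 78.5% for that of card B. It took 67.1% and 71.2% for snoRNA202, 60.4% and 69.6% for U87, 59.9% for miR-26a, 52.0% for snoRNA429 and 45.5% for miR-26b. Y1 had 25.5% on card A and 60.1% on card B, U6 16.1% and 29.0%, and miR-26b* 19.5%. The median over all assays with a Ct in every sample was 9.67% on card A and 19.3% on card B. The condition took 0.641% for snoRNA135 of card A, 5.81% for miR-26a and 9.85% for miR-26b, with medians over all assays of 47.8% and 40.1%. Relative to the sample median of the card the replicate number still took 88.4% for snoRNA135 of card A and 81.5% for that of card B, so that the pattern was not shared by the typical assay. On that scale the condition took more for each reference RNA of card A, among them 30.3% for miR-26a, 14.4% for miR-26b and 49.0% for U87. On card B it took more for U87, snoRNA202 and snoRNA429. It took less there for miR-26b*, 28.6% against 50.6% on the Ct scale, and for Y1, 3.81% against 19.4%. The same held for U6, 19.7% against 25.8%, and snoRNA135, 15.5% against 15.9%.

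A limma F test of the replicate number beside the condition was chosen after these values were seen. It passed the threshold for 5 of the 14 assays, with snoRNA135 counted on both cards, against 4.89% of all assays tested. They were snoRNA135 of card A (adjusted p 0.0469) and snoRNA135 (0.00496), U87 (0.0199), snoRNA202 (0.0212) and Y1 (0.0496) of card B. Relative to the sample median 6 of 14 passed, against 4.19%. The count on the Ct scale depended on the conditions that entered it, being 0 without the untreated αTC1-6 of either time, 1 without βTC1 and 3 or 4 without the cytokine samples of 24 h or 48 h. The labels do not state what a number stands for, such as a shared culture, extraction or run, and the part of these in the spread was not tested.

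**Figure D3:**
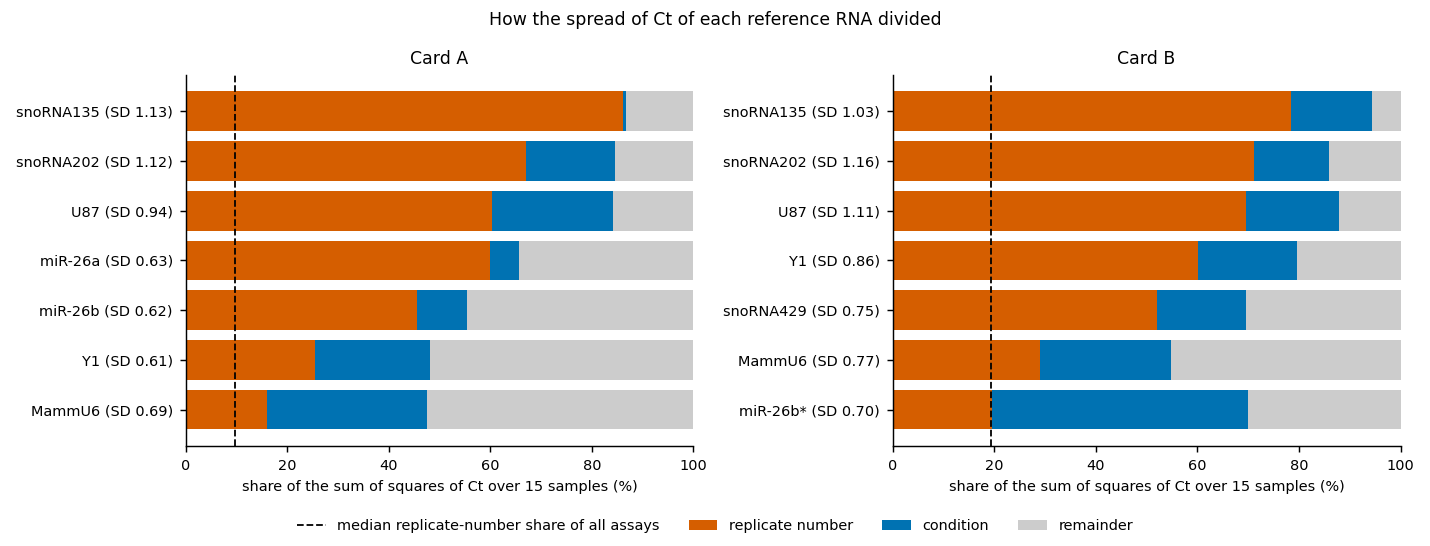
Share of the sum of squares of Ct over 15 samples taken by the replicate number, the condition and the remainder for each reference RNA (%), with the SD of Ct over the 15 samples in cycles beside its name. Dashed lines mark the median replicate-number share of all assays of the card with a Ct in every sample, 9.67% and 19.3%. SnoRNA135 reaches 86.1% and 78.5%, while U6 and miR-26b* lie nearest to the dashed lines.

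Differences between reference RNAs of 1 sample remove what that sample shares. The steadiest pair was the same on both cards: the Ct of U87 minus that of snoRNA202 had an SD of 0.42 cycles over the 15 samples, the smallest of 21 pairs on card A and of 21 on card B, and both RNAs were among those with the widest spread alone, 0.94 and 1.12 cycles on card A and 1.11 and 1.16 on card B. MiR-26b minus miR-26a was second on card A, at 0.48. The widest pairs set a small nucleolar RNA against Y1 or U6: Y1 minus snoRNA135 had an SD of 1.49 on card A, and snoRNA202 minus U6 had 1.38 on card B. Averaged over its 6 pairs of the card, the pairwise SD was lowest for miR-26a on card A, 0.71, followed by miR-26b, 0.74. It was highest for Y1, 1.06. On card B it was lowest for snoRNA429, 0.86, and highest for U6, 1.19. With the undetermined well at 40 that of U6 on card A was 1.73 and the highest of the card.

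**Figure D4:**
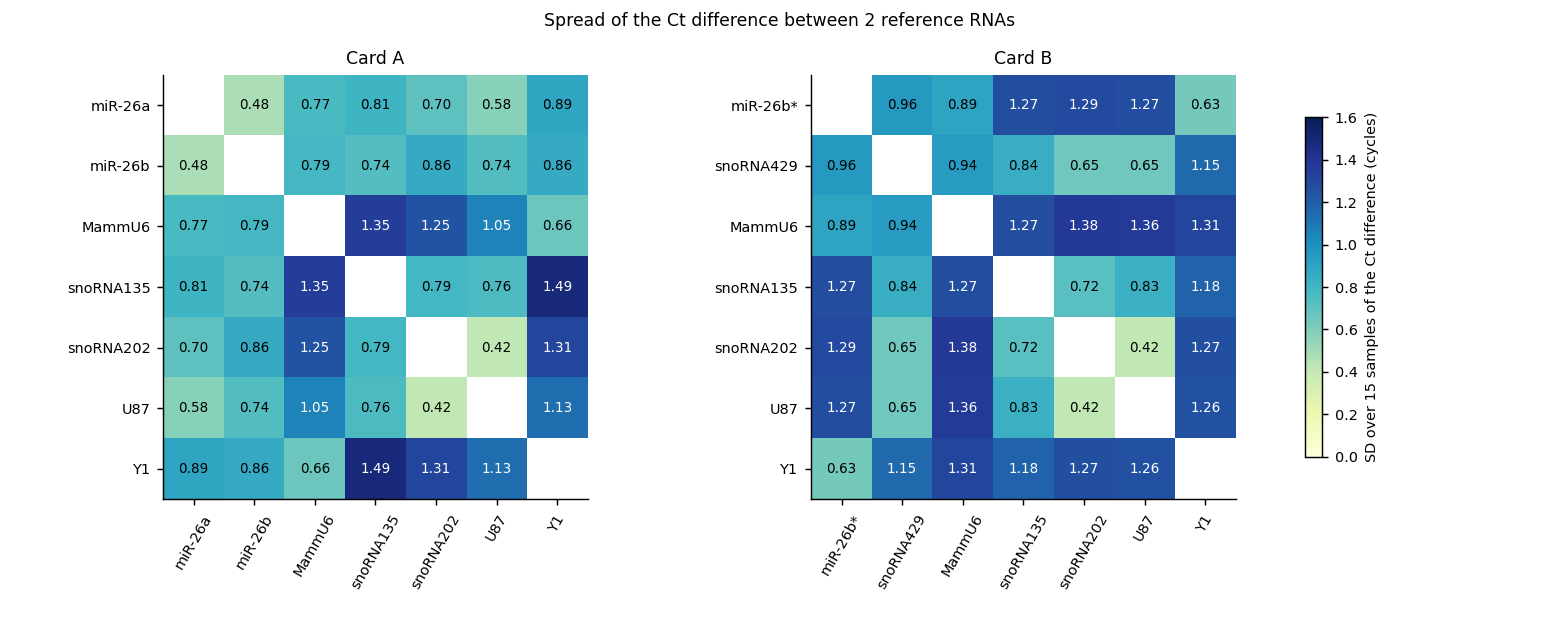
SD over 15 samples of the Ct difference between each 2 reference RNAs of a card (cycles, darker for wider). U6 of card A is without its undetermined well. U87 with snoRNA202 is lightest on both cards at 0.42, and Y1 or U6 with a small nucleolar RNA is darkest.

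Of the 42 pairs, 2 separated all βTC1 samples from all 12 αTC1-6 samples, both involving snoRNA135 of card B, against 25.3% of the 2016 differences between any assay and a reference RNA of its card. On the Ct scale itself 0 of the 14 assays of reference RNAs did so, against 27.9% of all assays with a Ct in every sample. The Ct of U87 minus that of snoRNA135 was 3.00, 2.61 and 2.53 in βTC1. It was 0.54, 0.91 and 0.83 in untreated αTC1-6 of 24 h and ran from 0.26 to 1.40, with a median of 0.85, over the 12 αTC1-6 samples. The condition took 89.2% of its sum of squares and the replicate number 0.670%, the reverse of either RNA alone. The Ct of snoRNA202 minus that of snoRNA135 was -2.09, -2.42 and -2.40 in βTC1 and ran from -4.23 to -2.81 in αTC1-6.

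Tested as differences between the untreated lines, these pairs came to 1.96 (95% interval 0.40 to 3.51, adjusted p 0.166) for U87 and to 1.70 (0.15 to 3.26, adjusted p 0.227) for snoRNA202, each relative to snoRNA135 of card B and higher in αTC1-6 (limma). They were the 2 of 42 pairs with an unadjusted p under 0.05, and 0 pairs passed the threshold, against 27.8% of all assays set against a reference RNA. On card A, where each RNA had 1 well, the same pairs differed by 1.35 (-0.94 to 3.65) and 1.12 (-1.25 to 3.49). When 1 fit over all 15 samples supplied the spread, both pairs of card B passed, with adjusted p of 0.00966 and 0.0271, as did U87 relative to miR-26a of card A, 1.12 with 0.0279. In the cytokine comparisons and in that of the untreated samples of 48 h and 24 h, 0 of 42 pairs passed and 0 had an unadjusted p under 0.05, against 0.251%, 0.473% and 5.3% of all assays set against a reference RNA. With the replicate number as a block 0 pairs passed in the cytokine comparisons and 2 had an unadjusted p under 0.05 at each time, all 4 relative to miR-26b*: U87 and snoRNA429 at 24 h, and U87 and U6 at 48 h.

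The same RNA was read on both cards from separate reactions, which shows how far a Ct repeats. U6 had a Ct on card A minus card B of 0.01 ± 0.61 (SD, n = 15) and U87 of 0.39 ± 0.50. SnoRNA135 and snoRNA202 read later on card A in every sample, by 1.13 ± 0.65 and 1.17 ± 0.56. Y1 was the least repeatable, at -0.34 ± 1.13, with values from -1.49 to 2.14. Its 3 highest values were those of replicate 2 in βTC1, 2.14, and in αTC1-6 of 24 h with and without cytokines, 1.64 and 1.06. Wells of 1 RNA within a sample of card B lay closer, with a median SD of 0.16 cycles and a highest of 0.77, the latter for U6. On card A, where U6 alone had several wells, the median was 0.30 and the highest 1.36, in αTC1-6 with cytokines for 24 h replicate 1.

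Ranked by the SD of Ct relative to the sample median among the 156 assays of card A with a Ct in every sample, miR-26b was 11th with 0.39 and miR-26a 33rd with 0.51. Without the undetermined well U6 was 64th, with 0.66, and Y1, U87, snoRNA135 and snoRNA202 were 73rd, 89th, 98th and 99th, with 0.69, 0.86, 0.94 and 0.99. The median assay of card A had 0.72. Among the 134 of card B, with a median of 0.82, miR-26b* was 31st with 0.60, snoRNA429 42nd with 0.66, Y1 49th with 0.71, snoRNA135 60th with 0.79, U6 62nd with 0.80, snoRNA202 81st with 0.94 and U87 83rd with 0.99. The steadiest assays were miR-106b, miR-28, miR-9, miR-140 and miR-151-3p on card A, with SDs from 0.29 to 0.32, and miR-93*, miR-872*, miR-877*, miR-15b* and rno-miR-7a* on card B, with 0.27 to 0.36. Of 12 miRNAs often used as references elsewhere, 10 had a Ct in every sample, with a median SD of 0.47. The lowest was miR-24 at 0.40, with 53.0% taken by the condition, and the highest miR-17 at 1.51, with 90.0%. In this list 2 of 12 were lower in αTC1-6 than in βTC1 on the Ct scale, miR-17 by 3.99 (adjusted p 0.00267) and miR-92a by 1.87 (adjusted p 0.0202), both members of the miR-17-92 cluster, and 0 were higher, against 31.5% of all assays called. The median over the list was -0.45, and over all assays -0.35. Relative to the sample median miR-191 also passed, higher by 1.00 (adjusted p 0.0264), which made 3 of 12 against 32.7%. Neither the cytokine comparisons nor that of time gave a call in the list.

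By the SD of the Ct difference over the 15 samples, the assays of card A that followed miR-26a most closely were miR-582-5p (0.33), miR-24 (0.39) and miR-532-3p (0.42), and miR-26b was 14th of 155 with 0.48. U87 was 31st, snoRNA202 52nd, U6 63rd, snoRNA135 71st and Y1 79th. U6 was followed most closely by miR-30d (0.50), miR-93 (0.56) and miR-24 (0.57), and with the undetermined well at 40 by miR-193b, miR-484 (1.51) and miR-30e (1.54).

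How the choice of reference carried over to the other miRNAs was then read from the number of assays past the threshold. Between αTC1-6 and βTC1, 149 of 478 miRNA assays (31.2%) passed relative to miR-26a, 58 higher and 91 lower in αTC1-6. Relative to miR-26b 169 passed, of which 148 were among the 149. With snoRNA135 there were 115, with snoRNA202 130, with Y1 131 and with U87 172. MiR-26a and miR-26b of card A were subtracted on both cards, whereas each other RNA was subtracted on its own card. The part of this in the counts was not tested. The sign split moved with the reference: 65 higher and 104 lower with miR-26b, 52 and 63 with snoRNA135, 49 and 123 with U87, and 76 and 88 with the sample median. U6 gave 86 calls, 50 higher and 36 lower, with its undetermined well at 40, and 132, 54 higher and 78 lower, without it. The median log2 difference of all 478 miRNA assays went from -1.49 with U87 through -0.53 with miR-26a to 0.10 with snoRNA135, and to 0.75 with U6 including the undetermined well.

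Under cytokines the count was small with each reference. At 24 h 1 of 443 assays (0.226%) passed relative to miR-26a, and from 1 to 3 did with the others. With the replicate number as a block, which the samples of this comparison allowed, 0 passed, with 51 at an unadjusted p under 0.05. At 48 h 3 of 532 (0.564%) passed relative to miR-26a, and from 2 to 4 with the others. With the block 0 passed, with 117 at an unadjusted p under 0.05. Between untreated αTC1-6 of 48 h and 24 h, 28 of 487 (5.75%) passed relative to miR-26a and from 22 to 28 with the others. Leaving out any 1 of the 3 samples of 48 h left 0 of these.

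**Figure D5:**
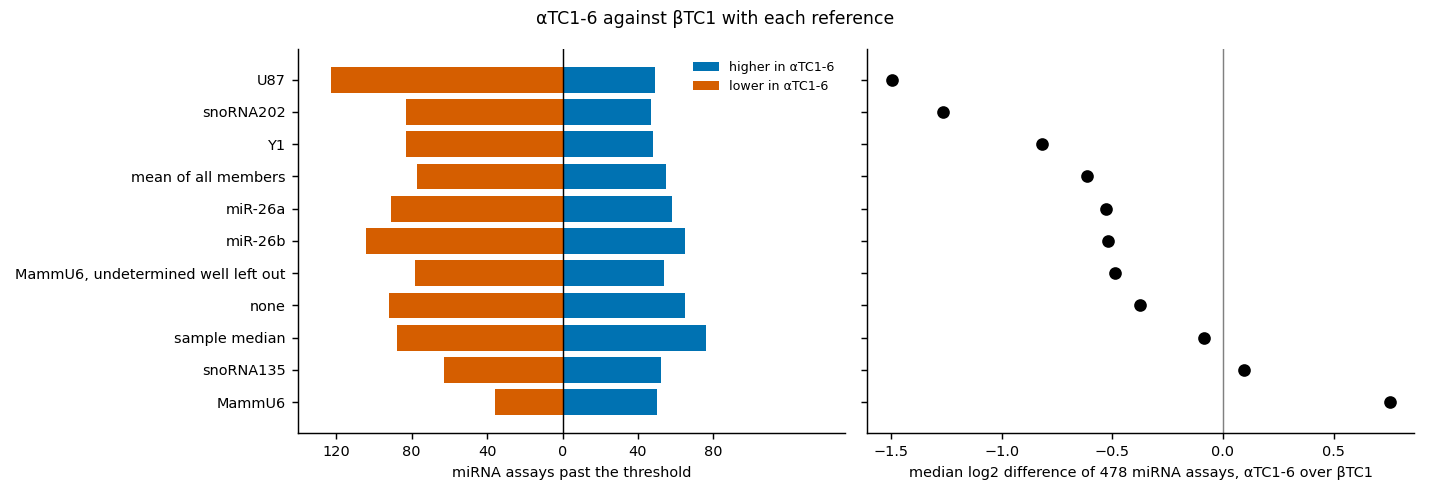
MiRNA assays past the threshold between αTC1-6 and βTC1 with each reference subtracted, higher to the right and lower to the left (left, number of assays), and the median log2 difference of the 478 assays (right, cycles). References are ordered by that median. Counts run from 86 with U6 including its undetermined well to 172 with U87.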

How the data were processed

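Total RNA of 15 samples (3 replicates of each of 5 conditions, described by the study as independent biological replicates) was extracted with Trizol, reverse transcribed, preamplified and run on rodent miRNA cards A and B with an ABI 7900HT. The authors deposited a non-normalized Ct table and a normalized table of ΔCt, log2 values relative to miR-26a of card A, with undetermined wells at 40. The methods speak of several reference genes, but in the deposited values the ΔCt of miR-26a is 0 in every sample. The non-normalized table repeats 1 value in all wells of a control in 90 of 90 cases, on both cards, so Ct was recovered as ΔCt plus the Ct of miR-26a. The deposited relative quantities and the authors' own fold changes were not used. Ct is logarithmic, and no counts exist, so no depth can be given: the number of arrays limits the precision.

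Blank wells (11 of 540 of the reference RNAs) were left out and wells of 1 assay on 1 card averaged. Differences were fitted with limma 3.58.1 (R 4.3.3, lmFit and eBayes) on the negative Ct of the samples compared, two-sided, for assays with a Ct under 40 in 3 or more samples (6 or more for the difference between cytokine effects), with Benjamini-Hochberg adjustment within each card over all assays tested and a threshold of 0.05. Undetermined wells entered at 40. All values of the reference RNAs were also computed without undetermined wells where another well of the assay on the card had a Ct. Among the reference RNAs this left out only the well of U6 of card A. Descriptive values used Python 3.11.15, numpy 2.4.6, pandas 2.3.3 and matplotlib 3.10.9. The tests were tried on simulated data first. Alternatives were Ct relative to the sample median or to miR-26a, the non-normalized table, other filters, 1 well, 1 fit over all samples, the replicate number as a block and leaving out each sample. Assays named beside the reference RNAs were the 5 steadiest per card, the 3 closest to miR-26a and to U6, and a list of 12 common reference miRNAs. The reference RNAs, lists and tests were chosen with earlier results of these data known.

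Same-numbered samples deviated together in the cytokine comparisons over 290 assays (correlations 0.28, 0.36 and 0.48 at 24 h, 0.35, 0.45 and 0.27 at 48 h), so the numbers were taken to pair these. Between lines (0.09, 0.10 and 0.08) and between times (-0.01, 0.24 and 0.09) they were not. The small nucleolar RNAs did go with the number in all 5 conditions, and the fits without the block counted that spread as error. Between lines the standard error of U87 of card B was 0.88 without and 0.27 with the block. That of snoRNA135 of card B was 0.88 and 0.36. It was larger with the block for miR-26b, 0.45 and 0.54, and for miR-26b*, 0.33 and 0.34.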

Additional observations from a re-analysis of the deposited data

Results flagged for a closer look

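The plant control ath-miR159a, an Arabidopsis miRNA for which a mouse sample holds no target, had a Ct in samples of both cards. On card A it had none in the 9 samples of 24 h and a Ct from 16.34 to 33.00 in 6 of 6 samples of 48 h. On card B it had a Ct in 7 of 9 samples of 24 h, from 4.57 to 31.09, and in 5 of 6 samples of 48 h, from 22.74 to 33.94. The lowest value, 4.57, was that of untreated αTC1-6 of 24 h replicate 1, the sample in which U6 of card A had its undetermined well. In the non-normalized table ath-miR159a had a Ct in 5 of the 9 samples of 24 h. That table gave the same value for both cards in each sample, so these values cannot be assigned to card A. Its part in the values of the reference RNAs was not tested.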

How the results depend on the processing

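The number of reference RNA assays past the threshold stayed at 0 of 14 in each of the 4 comparisons and over the 5 conditions. It also stayed at 0 for the difference between the cytokine effects. Both held under every alternative run, those that left out 1 sample included (0 to 0). Of 1074 recomputed adjusted p-values of single reference RNA assays 0 were under 0.05, the lowest being 0.0588. Signs were less stable: 20 of 56 differences changed sign relative to the sample median, 12 of 56 with the first well alone and 11 of 56 with the non-normalized table. Leaving out 1 sample changed up to 17 of 42, without untreated αTC1-6 of 24 h replicate 1, and 11 of 42 without its replicate 2. The pairs past the threshold also stayed at 0 (0 to 0 with 1 sample left out), apart from 3 between the lines in 1 fit over all 15 samples. The 5 assays of reference RNAs past the threshold by replicate number became 3 relative to miR-26a and 2 with the non-normalized table. They became 0 without untreated αTC1-6 of 24 h or of 48 h, 3 without cytokines of 24 h and 1 without βTC1.

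Of the miRNA calls, the 149 between lines became 86 with U6 and 90 to 120 with 1 sample left out, namely 92 and 90 without untreated αTC1-6 of 24 h replicate 2 or 3 and 99 without βTC1 replicate 1. The 1 at 24 h became 2 with miR-26b, 3 with the sample median, 2 without normalization, 0 with the replicate block and 0 to 2 with 1 sample left out (0 without untreated replicate 2 or 3, 2 without cytokine replicate 1 or 2). The 3 at 48 h became 2 with miR-26b, U6, U6 without its undetermined well, snoRNA135 or no normalization, 0 with the replicate block and 1 to 6 with 1 sample left out (5 without untreated replicate 1, and 6, 2 and 1 without cytokine replicates 1, 2 and 3). The 28 between times became 0 to 30 with 1 sample left out, being 0 without any 1 of the samples of 48 h. The causes were not tested. Where the numbers were not taken to pair the samples, the block gave 132 between lines and 23 between times, and 0 reference RNAs or pairs in any comparison. SnoRNA429 as a reference for card A was not run, since it is on card B only. With 1 sample left out an arm of 2 shares the spread of the other arm. The intervals of 3 against 3 samples, with median half-widths from 1.58 to 2.00 cycles and a widest of 2.91, limit all differences of the reference RNAs given here.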
